A study of Homo sapiens with 8 samples.

Results

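The comparison described here set A549 cells treated with 20 μg/mL EEDS, the ethanol extract of Descurainia sophia seeds, against A549 cells treated with its vehicle. Each side was measured on 1 one-colour Agilent whole human genome array. A gene was included when the scanner software had called its probe well above background on the vehicle array, on the 20 μg/mL array or on both. This rule kept 14176 of the 19056 genes matched to a usable probe. Of these, 12980 were well above background on both arrays, 747 on the vehicle array alone and 449 on the 20 μg/mL array alone. The lowest normalised signal called well above background among these genes was 23.6 on the vehicle array and 28.0 on the 20 μg/mL array, and the 4880 genes that were left out reached at most 40.9.

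A549 is an established human lung carcinoma cell line with features of the alveolar epithelium. The study treated it with vehicle, 1.25, 5 or 20 μg/mL EEDS, and in a second series with vehicle or rising doses of helveticoside, a cardiac glycoside found in these seeds. Cells were plated 24 h before treatment. The labels give 48 h of exposure, whereas the methods of the study give a shorter one. All groups used the same cell line and medium with fetal bovine serum, without any genetic change, and the extract was dissolved in dimethyl sulfoxide. RNA of triplicate cultures was pooled before labelling, so each array shows an average over cultures and no spread between them. With 1 array a side there is no replicate check and no test, and precision is limited by how few arrays there are. "Higher" and "lower" therefore describe these 2 arrays.

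Cardiac glycosides bind and inhibit the sodium pump, the Na+/K+-ATPase that exports sodium and imports potassium. Sodium then accumulates in the cell, calcium and stress-activated kinases respond, and protein synthesis is often impaired in human cells. Immediate early genes, which need no new protein to be transcribed, are known to be raised by such stimuli, and short-lived transcripts are sensitive to blocks of translation and of transcription.

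Values are normalised signals in arbitrary units, made comparable between arrays by quantile normalization, and a signal is compared only with that of the same probe on another array. The difference is given as a fold or as the log2 ratio of the 20 μg/mL array over the vehicle array. Where a gene was not well above background on 1 array, its signal there was replaced by the lowest signal called well above background on that array, or by its own if higher, and the fold is a bound. In pooled RNA from a whole culture, fewer cells of a type and less RNA per cell cannot be told apart.

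The scanner software called 64.9% of the probes well above background on the vehicle array and 63.3% on the 20 μg/mL array, no probe was saturated, and the median SD between spots of the same probe was 0.06 on the log2 scale on both. The epithelial markers KRT8, KRT18, KRT19 and EPCAM and the enzymes AKR1B10, AKR1C1 and ALDH1A1, which A549 cells are known to express strongly, were well above background on both arrays. Of the alveolar markers, NKX2-1 and SFTPB were well above background on neither, and SFTPC was low but above it on both (89.3 and 63.2). The markers CD3E, MS4A1 and HBB of blood cells and the markers COL3A1, DCN, LUM, PECAM1 and VWF of fibroblasts and endothelium were well above background on neither array. PTPRC (117 and 134) and CDH5 (117 and 125) were called well above background on both at low signal, as was the collagen COL1A1 (327 and 569), and CD14, a monocyte antigen, had 2824 on the vehicle array and 951 at 20 μg/mL.

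The signal of 2183 of the 14176 genes (15.4%) was more than 2-fold higher at 20 μg/mL, and that of 2381 (16.8%) more than 2-fold lower than under vehicle. A difference of more than 4-fold was found for 515 genes in the higher direction (3.63%) and for 643 in the lower (4.54%). Among the 12980 genes measured above background on each of the arrays, 1952 (15.0%) and 2070 (15.9%) passed 2-fold and 439 (3.38%) and 545 (4.20%) passed 4-fold. The differences were nearly symmetric, with a median log2 ratio of 0.00, quartiles of -0.66 and 0.65 and an SD of 1.15 over all genes of the comparison. Counts for gene lists are to be read against the shares of 15.4% and 16.8%. Quantile normalization sets the distributions of the arrays equal and so holds this median near 0. When the arrays were scaled to their 75th percentiles instead, the median was -0.11, with 2096 genes past 2-fold on the higher side and 2919 on the lower.

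The vehicle array of the helveticoside series is the only other untreated measurement. Between the vehicle arrays, 475 of 12386 genes (3.83%) were past 2-fold with the higher signal in the helveticoside series, 182 (1.47%) with the lower, and 34 (0.275%) and 13 (0.105%) passed 4-fold. The SD of the log2 ratios was 0.50 between the vehicles and 1.11 between 20 μg/mL EEDS and its vehicle, over genes called well above background by both arrays of each pair. The share of genes within 1.5-fold was 80.7% between the vehicles and 47.0% at 20 μg/mL.

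**Figure D1:**
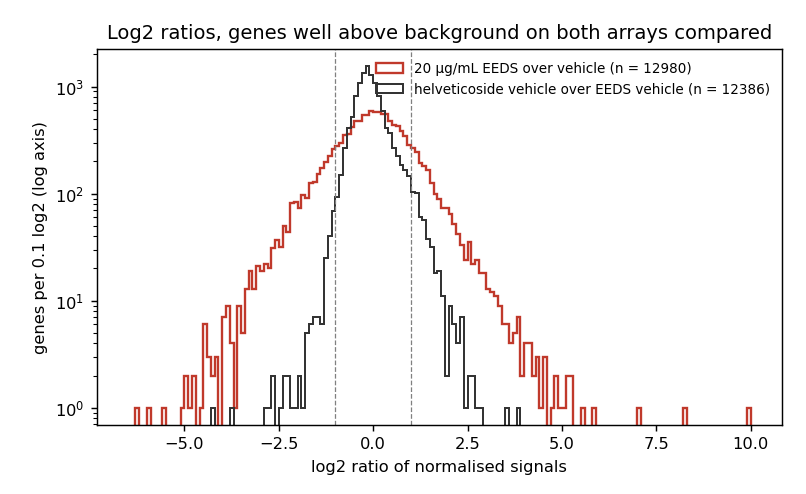
Distribution of the log2 ratios of genes well above background on both arrays compared, as the number of genes per 0.1 log2 on a log axis. The red line shows 20 μg/mL EEDS over its vehicle (12980 genes, SD 1.11), the black line the helveticoside vehicle over the EEDS vehicle (12386 genes, SD 0.50), and the dashed lines mark 2-fold; the red distribution is the wider on both sides.

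**Figure D2:**
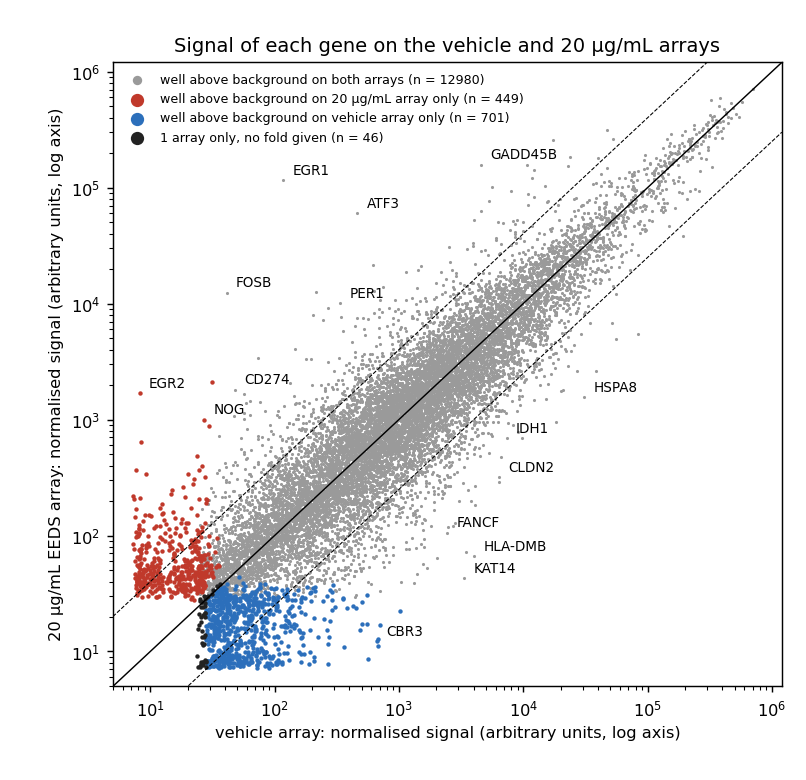
Normalised signal of each of the 14176 genes on the vehicle array (horizontal, log axis) and the 20 μg/mL EEDS array (vertical, log axis). The solid line marks equal signal and the dashed lines 4-fold; grey points were well above background on both arrays, red and blue points on 1 array, and EGR1 and KAT14 lie among the points farthest from the line on either side.

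Differences were found at every signal level. When the genes were divided into 5 bins of equal size by their mean signal, between 13.6% and 17.7% of a bin were higher by more than 2-fold and between 12.5% and 20.8% were lower.

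Transcription factors of the immediate early class held the largest differences in the higher direction. Of the 41 measured genes of this list (42 on the array), 33 were more than 2-fold higher and 1 lower, and 24 were more than 4-fold higher, beside 15.4% and 3.63% of all genes of the comparison. The median log2 ratio of the list was 2.46, beside 0.00 over all genes. The same genes had a median of -0.31 between the vehicle arrays.

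EGR1, a zinc finger factor of the early growth response, had a signal of 118, 231, 1694 and 115700 on the vehicle, 1.25, 5 and 20 μg/mL arrays. The signal at 20 μg/mL was 982-fold that on the vehicle array, and most of the log2 difference lay between 5 and 20 μg/mL. EGR2, its relative, was near background under vehicle and read 1687 at 20 μg/mL, at least 71.9-fold higher. FOSB, a subunit of the dimeric factor AP-1, had 41.1, 144, 653 and 12390, which was 301-fold higher at the top dose. FOS had 615, 1497, 922 and 21360, without a steady order over the lower doses, and was 34.8-fold higher at 20 μg/mL. The AP-1 subunits FOSL1 and JUN were 22.7-fold and 11.5-fold higher, from 339.7 to 7715 and from 735 to 8427.

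ATF3, a stress-induced factor that dimerizes with JUN, had 463, 1592, 5376 and 60310 on the 4 arrays, 130.2-fold higher at 20 μg/mL on its brightest probe. Its 3 probes well above background on both arrays differed widely, with log2 ratios from 0.93 to 7.02. MAFF, a small MAF factor that pairs with other basic leucine zipper proteins, was 39.3-fold higher, from 202 to 7942. The Krüppel-like factor KLF4 went from 63.4 to 1104, KLF6 from 2386 to 16210 and KLF2 from 1328 to 3263. BTG2, an antiproliferative early gene, had 828 and 9078, and CSRNP1, a nuclear protein induced by AXIN1, was 14.6-fold higher. IER5L was the only measured gene of the list more than 2-fold lower, with 17920 and 3748 on its brightest probe and a log2 ratio of -0.55 on the other.

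EGR1 and MAFF are among the 25 largest differences in the higher direction. Their promoters are shown because they hold motifs of factors known to respond to serum, calcium and cyclic AMP. The 250 bases before the annotated transcript start, from RefSeq in build GRCh38.p14, were searched on both strands. Capitals mark the motif. In EGR1 they mark CArG boxes, to which serum response factor binds (chr5:138465229-138465478, plus strand, 105 to 96 and 83 to 74 bases before the start). In MAFF they mark the cAMP response element TGACGTCA (chr22:38201744-38201993, plus strand, 54 to 47 bases before the start).
EGR1: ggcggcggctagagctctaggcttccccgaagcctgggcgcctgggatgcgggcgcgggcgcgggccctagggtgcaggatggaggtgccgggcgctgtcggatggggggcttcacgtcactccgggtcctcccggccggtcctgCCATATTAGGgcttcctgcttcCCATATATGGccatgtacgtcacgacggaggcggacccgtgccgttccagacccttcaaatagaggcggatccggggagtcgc
MAFF: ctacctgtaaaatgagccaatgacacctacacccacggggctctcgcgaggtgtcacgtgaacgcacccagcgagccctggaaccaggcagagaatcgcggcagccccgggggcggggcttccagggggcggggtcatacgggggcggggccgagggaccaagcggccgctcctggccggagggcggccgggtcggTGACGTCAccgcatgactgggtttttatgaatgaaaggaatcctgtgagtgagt

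A CArG box lay in 1.14% of the 16295 promoter windows of the 11281 genes with a RefSeq window and in 10.7% of the 28 windows of immediate early factors more than 4-fold higher, which is 3 windows. Of these 28 windows, the cAMP response element lay in 1 (3.57%, beside 2.36% of all windows) and the AP-1 site TGANTCA in 0. The E-box CACGTG and the TATA box TATAAA each lay in 5 (17.9%, beside 7.99% and 6.89%). A match to letters is a description and not a bound site.

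Genes that damp mitogen-activated protein kinase signalling leaned higher. Of 22 measured MAP kinase phosphatases and feedback inhibitors, 11 were more than 2-fold higher and 1 lower, beside 15.4% and 16.8% of all genes, with a median log2 ratio of 1.08. DUSP1, a nuclear phosphatase of these kinases, had 15080, 26840, 45800 and 103600 on the 4 arrays, 6.87-fold higher at 20 μg/mL. DUSP6, which acts on ERK in the cytoplasm, was 5.33-fold higher (4101 and 21870), and DUSP10, which acts on p38 and JNK, was 8.94-fold higher (48.0 and 429). SPRY4, an inhibitor of receptor tyrosine kinase signalling, had 243 and 1269 on its brightest probe and a log2 ratio of 0.62 on the other, whereas SPRY1 of the same family was 3.14-fold lower, from 147 to 46.7.

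In the EGF family, 6 of 13 measured genes were more than 2-fold higher and 2 lower, and 3 of the 13 have only a bound or no fold. The median of 0.05 was 0.58 over members well above background on both arrays. With the helveticoside vehicle as the control it was 0.47. The ligands differed in both directions. EREG had 1136, 4382, 9699 and 18890 and AREG 4574, 12410, 25110 and 62400, which was 16.6-fold and 13.6-fold higher at 20 μg/mL. HBEGF was well above background at 20 μg/mL alone and was at least 29.4-fold higher. NRG2 was at least 5.90-fold lower, from 212 to 36.0. The receptor EGFR was 7.99-fold higher on its brightest probe (803 and 6418), and the lowest of its 3 probes had a log2 ratio of 0.93. The related receptor ERBB3 was 2.01-fold lower, with 229.7 and 114, and ERBB2 read 5070 and 2783. ADAM17, the protease that releases several of these ligands from the membrane, had 966 and 2790.

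Subunits and feedback genes of NF-κB formed a list with no member more than 2-fold lower. Of 26 measured genes, 17 (65.4%) were more than 2-fold higher, and the median log2 ratio was 1.58. The feedback inhibitors stood out by size. TNFAIP3, the deubiquitinase A20, had 58.7, 98.2, 187 and 1380 and was 23.5-fold higher. NFKBIE, an inhibitor that holds NF-κB in the cytoplasm, had 1498, 2049, 4202 and 20890, 13.9-fold higher. BIRC3, an inhibitor of apoptosis and ubiquitin ligase of this pathway, had 630.2, 4044, 6960 and 12850, 20.4-fold higher, and most of its log2 difference was already present at 1.25 μg/mL. Of the kinases and subunits, MAP3K14 was 13.6-fold, RELB 8.01-fold and REL 7.81-fold higher, and TRAF1, not well above background on the vehicle array, at least 11.8-fold.

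BIRC3 is shown as a promoter of this list whose upstream window holds a pair of NF-κB motifs, in capitals (GRCh38.p14, chr11:102317234-102317483, plus strand, 199 to 190 and 135 to 126 bases before the start, from RefSeq).
BIRC3: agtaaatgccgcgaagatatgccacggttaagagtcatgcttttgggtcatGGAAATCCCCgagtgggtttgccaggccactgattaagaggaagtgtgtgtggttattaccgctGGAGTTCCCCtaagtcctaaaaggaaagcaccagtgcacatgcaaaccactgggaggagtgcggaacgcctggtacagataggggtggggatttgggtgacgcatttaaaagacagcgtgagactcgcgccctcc

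NF-κB motifs lay in 6.01% of all promoter windows. Past 4-fold, the shares were 8.14% of the 553 windows of higher genes and 5.66% of the 742 windows of lower genes. Past 2-fold they were nearly equal, at 6.34% for higher and 6.24% for lower genes.

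Secreted cytokines followed the same direction. Of 27 measured cytokines and chemokines, 16 were more than 2-fold higher and 0 lower, beside 15.4% and 16.8% of all genes, and 9 of the 27 have only a bound or no fold. Genes that passed through the 20 μg/mL array alone had to be higher, and the list's median of 1.70 was 0.23 over all 44 of its genes on the array, 1.18 with the helveticoside vehicle as the control and 0.81 on scanned signals without background subtraction. CXCL8, a neutrophil attractant, had 73.6, 515, 1622 and 3368 on the 4 arrays, 45.8-fold higher at the top dose. CXCL1 and CXCL2, attractants of the same receptor, were 11.6-fold and 7.09-fold higher. IL11, a cytokine of the IL6 family, was bright on every array with 7922, 14310, 37720 and 93570, and LIF of that family was 8.38-fold higher. CCL20, CSF2 and LTB had no signal well above background under vehicle, and the bounds were at least 9.38-fold for CCL20, 9.03-fold for CSF2 and 27.5-fold higher for LTB. CD274, the checkpoint ligand PD-L1, was outside the list but among the 25 largest, with 47.8, 327, 601 and 1812. CD83, a marker of activated antigen-presenting cells, had 56.9 and 1648, and its signal at 1.25 μg/mL (33.0) lay below that of the vehicle.

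Interferon-stimulated genes did not share this direction. Of 35 measured, 3 were more than 2-fold higher (8.57%, beside 15.4% of all genes) and 11 lower (31.4%, beside 16.8%). Of the 35, 10 have only a bound or no fold, and genes that passed through the vehicle array alone could not be higher. The median of -0.32 was -0.17 over the members well above background on both arrays. OAS1, a sensor that activates RNA decay, had 476, 645, 141 and 57.1, 8.34-fold lower at 20 μg/mL, and its signal at 1.25 μg/mL lay above the vehicle. IFIT1, which binds viral RNA, was at least 6.87-fold lower, and USP18, which removes ISG15, was 4.50-fold lower. IRF1, a factor also driven by NF-κB, was 5.63-fold higher with 198 and 1113, and TAP1, a peptide transporter for antigen display, 2.85-fold.

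Of 17 HLA genes and their relatives measured, 2 were more than 2-fold higher and 2 lower. HLA-DMB, a class II peptide exchange subunit, had 4024, 3567, 1145 and 66.2 and was 60.8-fold lower. Its partner HLA-DMA had 983 and 556. The class I genes are closely similar in sequence, and their probes may not separate them.

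Targets of p53 were largely higher. Of 32 measured genes of this list, 22 (68.8%, beside 15.4% of all genes) were more than 2-fold higher and 1 lower, with a median log2 ratio of 1.34. GADD45A, which responds to DNA damage, had 746, 1113, 3121 and 13800, 18.5-fold higher. The cyclin-dependent kinase inhibitor CDKN1A, known as p21, had 145, 341, 913 and 1367, 9.40-fold higher. BBC3, the pro-apoptotic protein PUMA, had 2514, 5926, 14260 and 30850, 12.3-fold higher. AEN, an exonuclease of apoptosis, PLK3 and PPM1D, a phosphatase that feeds back on p53, were 11.5-fold, 7.83-fold and 7.36-fold higher. The death receptors TNFRSF10A and TNFRSF10B went from 358 to 2500 and from 8216 to 51220.

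Among 44 regulators of cell death, 16 were more than 2-fold higher and 6 lower, and the median was 0.71. Genes that promote death and genes that prevent it were both among the higher ones. GADD45B, a stress sensor, had 4574, 11140, 18920 and 157800, 34.5-fold higher. The survival proteins MCL1 and CFLAR were 4.22-fold and 3.79-fold higher, CFLAR with a log2 ratio of 0.83 on another probe. HRK, a BH3-only killer, was at least 7.29-fold higher. TRADD, the adaptor of the TNF receptor, had 9225, 4824, 3252 and 1588, 5.81-fold lower, and the executioner caspase CASP6 was 4.30-fold lower, from 1185 to 275.

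The integrated stress response, in which phosphorylated eIF2α limits translation and ATF4 is made, gave a mixed picture. Of 37 measured genes, 13 were more than 2-fold higher and 5 lower, with a median of 0.56. PPP1R15A, known as GADD34, restores eIF2α and had 214, 578, 1461 and 12490, 58.2-fold higher. DDIT3, the factor CHOP, had 147, 367, 831 and 4070, 27.7-fold higher. Several ATF4 targets had their highest signal at 5 μg/mL and not at 20. ASNS, which makes asparagine, had 12230, 31610, 154500 and 82980, and NUPR1, a chromatin-associated stress protein, 1113, 5141, 13800 and 6180. STC2, a secreted glycoprotein that was not well above background on the vehicle array, had 11.9, 125, 494 and 173. DDIT4, an inhibitor of mTORC1, had 12750, 23620, 18690 and 2919 and was 4.37-fold lower at 20 μg/mL, although both lower doses lay above the vehicle.

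Chaperones of the endoplasmic reticulum were close to the background of the comparison, with 5 of 33 more than 2-fold higher, 3 more than 2-fold lower and a median of -0.03. HSPA5, the chaperone BiP, was 2.48-fold lower (2386 and 963), while its cofactors DNAJB9 and DNAJC3 were 2.61-fold and 2.44-fold higher.

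Cytosolic chaperones leaned lower. Of 32 measured heat shock genes, 4 were more than 2-fold higher (12.5%, beside 15.4% of all genes) and 11 lower (34.4%, beside 16.8%), and the median was -0.35. HSPA8, the constitutive HSP70 of the cytosol, had 30860, 5394, 2369 and 1550, 19.9-fold lower. HSPA1A had 22710, 4424, 3294 and 2922 and HSPA1B 12230, 3194, 2102 and 2888, genes of nearly identical sequence that probes may not separate. HSPA2 had 7525, 2554, 1113 and 929, 8.10-fold lower, and HSP90AB1 19300, 9704, 5781 and 7000, 2.76-fold lower. In these genes the largest step lay between the vehicle and 1.25 μg/mL, unlike in EGR1. CRYAB, a small heat shock protein, had 1013, 904, 186 and 144. The other direction was taken by HSPA13, at 1454 and 4049, and by the heat shock factor HSF2, at 957 and 2676.

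**Figure D3:**
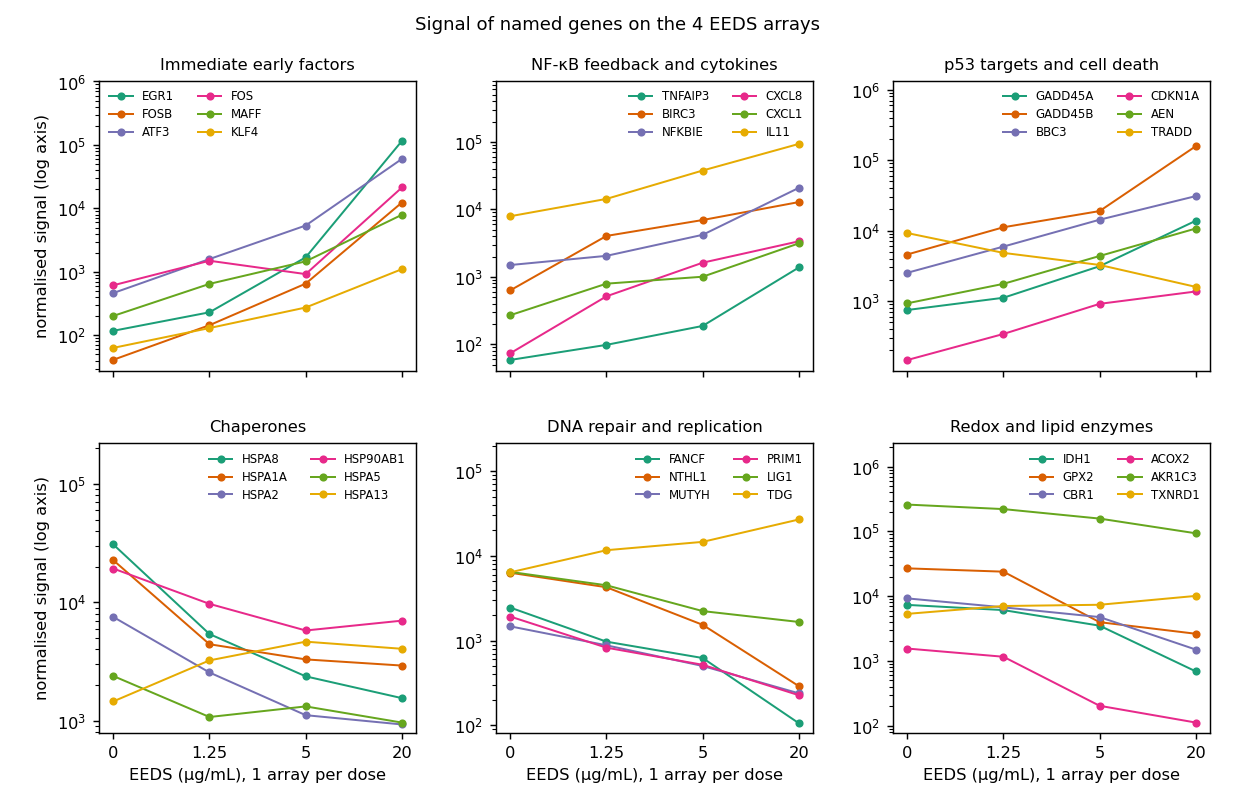
Normalised signal (log axis) of named genes on the 4 EEDS arrays, 1 array per dose, in panels of immediate early factors, NF-κB genes and cytokines, p53 and death genes, chaperones, DNA repair and replication genes, and redox and lipid enzymes. Points are single arrays joined by lines; HSPA8 is already 2369 at 5 μg/mL against 30860 on the vehicle array, whereas EGR1 steps from 1694 at 5 μg/mL to 115700 at 20 μg/mL.

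Clock genes had a median log2 ratio of 1.26, with 12 of 20 more than 2-fold higher and 1 lower. PER1, a repressor of the clock that also responds to cyclic AMP, had 338, 1712, 1096 and 10090, 29.9-fold higher. NR1D1, the nuclear receptor REV-ERBα, had 132, 219, 359 and 2066, and the repressors CRY1 and CRY2 were 7.54-fold and 5.50-fold higher. DBP, a clock output factor, was the gene on the lower side, with 405, 676, 184 and 124.

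Targets of YAP and serum response factor had 11 of 29 members more than 2-fold higher and 1 lower, with a median of 0.58. CCN1, a matricellular protein, had 5598, 8799, 23450 and 101000, 18.0-fold higher. CCN2 and ANKRD1, both classic targets of YAP, were 8.67-fold and 10.4-fold higher, and the kinase LATS2, which restrains YAP, 5.86-fold.

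In the TGF-β and BMP list, 17 of 46 genes were more than 2-fold higher and 5 lower, with a median of 0.47. Secreted BMP antagonists were on the higher side. GREM1 had 355, 566, 3006 and 5824, 16.4-fold higher, and NOG was at least 36.6-fold higher, with 995 at 20 μg/mL. FST and FSTL3, which bind activins, were 5.11-fold and 5.00-fold higher. The BMP targets ID2 and ID4 were 6.48-fold and 5.74-fold higher. The ligands BMP4 and BMP6 were 3.99-fold and 4.86-fold lower.

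Wnt genes leaned the other way, with 4 of 35 more than 2-fold higher (11.4%, beside 15.4% of all genes) and 11 lower (31.4%, beside 16.8%). The median of -0.57 was -0.11 when genes near background on both arrays were kept. DACT2, a modulator of this pathway, was at least 20.3-fold lower, with 568, 127, 19.4 and 8.58. RNF43, a ligase that removes Frizzled receptors, was 10.2-fold lower, the receptors FZD8 and FZD4 8.43-fold and 4.42-fold lower and the feedback gene AXIN2 3.27-fold lower. TCF7L2, a DNA-binding partner of β-catenin, read 239 and 734, but its probes ranged from -0.83 to 1.86. In the Notch list, 2 of 23 were more than 2-fold higher and 8 lower. LFNG, a glycosyltransferase of the receptors, had 1352 and 127, with another probe at -0.61, and the receptor NOTCH3 had 12490, 12240, 3911 and 3871.

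HOX genes, which set position along the body axis, were lower in 11 of 28 cases by more than 2-fold (39.3%, beside 16.8% of all genes) and higher in 3. The median of -0.53 was -0.06 with the helveticoside vehicle as the control and -0.94 with scaling to the 75th percentile. HOXB13 had 2025, 1310, 380.4 and 63.4, 31.9-fold lower. HOXC4, HOXB6 and HOXB5 were 6.48-fold, 4.52-fold and 4.48-fold lower, and HOXC13 was 3.49-fold higher. HOXB8 read 5030 and 1528, but only 264 on the helveticoside vehicle array, so the vehicles differed more than the treatment.

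Cell division genes of G1 and of mitosis leaned higher in their medians. Of 25 G1 cyclins and inhibitors, 10 (40.0%) were more than 2-fold higher and 3 lower (median 0.70). Of 51 mitotic genes, 10 (19.6%) were more than 2-fold higher and 1 lower (median 0.62). The mitotic share of higher genes was near the 15.4% of all genes. The share of lower genes in each list was under the 16.8% of all genes. CDKN2D, an inhibitor of cyclin D kinases, had 1146 and 4580, and the kinase CDK6 3708 and 12230. The mitotic kinase CDK1 had 4661, 9169, 8749 and 12880, the kinesin CENPE 277, 1021, 742 and 1065 and KIF18A 758, 1881, 1569 and 2511, higher than the vehicle on each EEDS array. HMMR, a spindle protein, was the only gene of the mitotic list more than 2-fold lower, with 2808 and 1386. E2F2 and the pocket protein RBL2 were 2.78-fold and 3.49-fold lower.

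DNA replication genes had a median of -0.57, with 14 of 51 more than 2-fold lower and 2 higher. PRIM1, the catalytic subunit of primase, had 1924, 826, 519 and 227, 8.47-fold lower. The ligase LIG1, which seals Okazaki fragments, had 6464, 4494, 2230 and 1660, and the kinase CDC7, which fires origins, 397, 383, 274 and 77.8. GINS4 of the replicative helicase was 4.47-fold lower. The origin subunit ORC6 was on the other side, with 461 and 1259.

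DNA repair genes were lower still in count, with 20 of 58 more than 2-fold lower, 1 higher and a median of -0.76, beside 16.8% of all genes lower. FANCF, an adaptor of the Fanconi core complex, had 2454, 972, 624 and 106, 23.2-fold lower. NTHL1, a glycosylase for oxidized pyrimidines, had 6320, 4262, 1536 and 290.2, 21.8-fold lower, and MUTYH, which removes adenine opposite 8-oxoguanine, 1474, 881, 502 and 239, 6.17-fold lower. The scaffold XRCC1 was 4.14-fold lower. TDG, the thymine DNA glycosylase, was the 1 gene on the higher side, with 6388, 11650, 14610 and 26840.

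Replication-dependent histone genes leaned slightly to the higher side, with 14 of 61 more than 2-fold higher, 0 lower and a median of 0.64. Their transcripts end in a stem loop and lack a poly(A) tail, and many copies are near identical in sequence, so probes of this family are uncertain. H4C6 had 1730, 1152, 1775 and 4963 and H1-2 29040, 33110, 44350 and 69810. The list's median was 0.18 between the vehicle arrays, -0.42 at 1.25 μg/mL and -0.02 at 5 μg/mL.

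Redox enzymes leaned lower. In the list of aldehyde dehydrogenases, aldo-keto and carbonyl reductases, 14 of 28 were, beside 16.8% of all genes, more than 2-fold lower and 1 more than 2-fold higher, and the median of -1.02 was the lowest of all lists. Of 33 NRF2 targets and glutathione genes, 11 were more than 2-fold lower and 0 higher, with a median of -0.64. These lists overlap and are not separate counts, with CBR3 the lowest gene of each. CBR3, a carbonyl reductase, had 669 on the vehicle array and was not well above background at 20 μg/mL, at least 23.9-fold lower, and CBR1 had 9241, 6718, 4751 and 1495, 6.18-fold lower. AKR1C3 had 260000, 221400, 157900 and 93570 and AKR1B10 326800, 395300, 171400 and 149500, bright on every array and 2.78-fold and 2.19-fold lower. The AKR1C genes, like AKR1B10 and AKR1B15, are close relatives whose probes may share transcripts.

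GPX2, an epithelial glutathione peroxidase, had 26890, 23900, 3964 and 2624, 10.2-fold lower, with the step between 1.25 and 5 μg/mL. GCLC, which starts glutathione synthesis, and GSR, which recycles it, were 2.76-fold and 2.36-fold lower. PGD of the pentose phosphate pathway, which makes NADPH, had 52300, 41720, 19360 and 14100. TXNRD1, thioredoxin reductase, had 5326, 7044, 7361 and 10090 and so lay on the other side of the vehicle.

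Among fatty acid oxidation genes, 8 of 37 were more than 2-fold lower (21.6%, beside 16.8% of all genes) and 2 higher (median -0.51). ACOX2, a peroxisomal oxidase of branched chains, had 1552, 1159, 202 and 112, 13.9-fold lower, and ACADSB, a dehydrogenase shared with isoleucine breakdown, 952, 579, 331 and 183, 5.21-fold lower. In branched-chain amino acid breakdown, 6 of 28 were more than 2-fold lower (21.4%) and 0 higher. Of the 28 cholesterol genes, 6 were lower (21.4%) and 2 higher. The cholesterol median of -0.52 was -0.09 with the helveticoside vehicle as the control. HMGCS1, which makes HMG-CoA, was among the higher ones, with 979.6 and 5271.

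In the citrate cycle list, IDH1, the cytosolic NADP-dependent isocitrate dehydrogenase, stood alone with 7335, 6093, 3499 and 688, 10.7-fold lower, while 1 of 28 genes was more than 2-fold higher and 1 lower. Glycolysis had 4 of 21 genes more than 2-fold higher and 2 lower. PFKP, the platelet isoform of phosphofructokinase, had 42510 and 102200, whereas PFKM of muscle was 2.49-fold and PFKL of liver 3.29-fold lower. PFKFB4, which sets the level of the activator of this enzyme, was 7.39-fold higher.

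Detoxifying and transport genes included CYP1A1, the aryl hydrocarbon receptor target, which was not well above background on the vehicle array and read 341 at 20 μg/mL, at least 14.5-fold higher. The vitamin D hydroxylases went opposite ways, CYP2R1 from 2315 to 309 and CYP27B1 from 43.6 to 182. Of 27 ABC transporters, 0 were more than 2-fold higher and 7 lower (25.9%, beside 16.8% of all genes), and the median of -0.60 was -0.04 when genes near background on both arrays were kept. ABCA3, the lipid transporter of surfactant, had 2204 under vehicle and 244 at 20 μg/mL, 9.04-fold lower. ABCC3, an organic anion pump, read 40130 and 20060 on its brightest probe and had a log2 ratio of 1.59 on another. Of 22 secreted proteins of liver type that A549 cells express, 2 were more than 2-fold higher and 5 lower. The fibrinogen chains FGA, FGB and FGG were 2.12-fold, 2.29-fold and 2.26-fold lower, and APOE was 2.72-fold higher.

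The sodium pump, the target of cardiac glycosides, differed little. Of 11 measured subunits and FXYD regulators, 2 were more than 2-fold higher and 0 lower. The median of 0.43 became -0.04 with scaling to the 75th percentile, so the list has no settled direction. The beta subunit ATP1B1 had 49320, 84840, 86780 and 112900, 2.29-fold higher, and the beta subunit ATP1B3 58390, 59400, 70920 and 67900. FXYD3, the other higher gene, was at least 2.47-fold higher. Among 39 other ion transport genes, 8 were more than 2-fold higher and 10 lower. NFAT5, the factor of the osmotic stress response, had 2888, 5941, 7722 and 17250, 5.97-fold higher. SLC8B1, the mitochondrial sodium-calcium exchanger, had 679, 456, 269 and 119, 5.71-fold lower. ATP2A2, the calcium pump of the endoplasmic reticulum, read 6084 and 1201 on its brightest probe, with 0.53 on another. ORAI1, the store-operated calcium channel, was 2.73-fold higher and SLC12A2, the sodium-potassium-chloride cotransporter, 2.78-fold lower.

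Epithelial junction genes went both ways, at shares close to those of all genes. Of 28 claudin and tight junction genes, 4 were more than 2-fold higher (14.3%, beside 15.4%) and 5 lower (17.9%, beside 16.8%). CLDN2, which forms cation pores, had 6375, 3364, 403 and 318, 20.1-fold lower, and CLDN3 was 4.24-fold lower, whereas CLDN1, a sealing claudin, had 1930, 4315, 7515 and 10990, 5.69-fold higher. Of 36 keratin and adhesion genes, 11 were more than 2-fold higher and 6 lower, with a median of 0.12. DSC2 and PKP2 of the desmosome were higher, with 25.3 and 123 and with 122 and 656, whereas JUP, plakoglobin, was 4.02-fold lower. CDH1, E-cadherin, had 962, 734, 194 and 148, 6.52-fold lower, and its repressors ZEB1 and ZEB2 were 3.54-fold and 4.55-fold higher. KRT19 was 3.73-fold lower, from 31460 to 8427, and KRT80 went from 4424 to 14050. Of 28 genes of plasminogen activation and matrix proteolysis, 11 were more than 2-fold higher and 3 lower, with a median of 0.62 that was 0.08 when genes near background on both arrays were kept. PLAU, the urokinase, had 7760 and 21430, and the tissue activator PLAT 318 and 94.7. Among lung lineage genes, GATA6 had 441, 798, 1060 and 3456 and the mucins MUC1 and MUC5B were 3.75-fold and 4.27-fold lower.

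**Figure D4:**
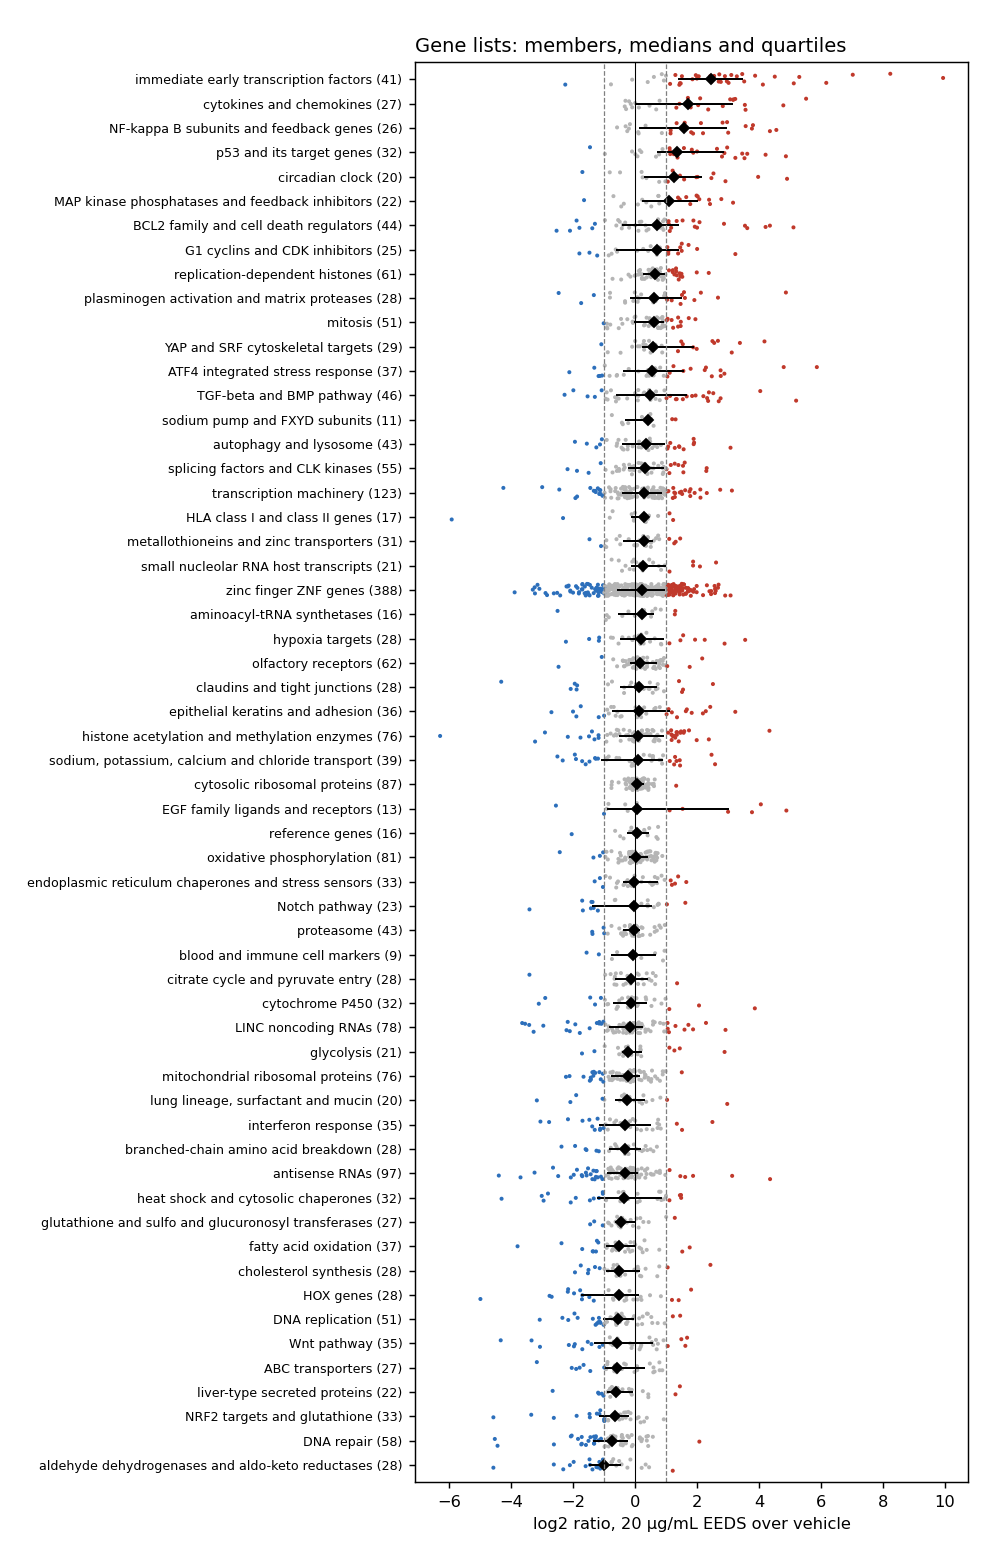
Log2 ratio of 20 μg/mL EEDS over vehicle for the members of the gene lists with 9 or more members, ordered by their median (diamond), with the quartiles as a bar and the number of members in brackets. Red and blue points are genes more than 2-fold higher or lower and dashed lines mark 2-fold; immediate early factors lie highest (median 2.46) and aldehyde dehydrogenases and aldo-keto reductases lowest (median -1.02).

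Of 28 hypoxia targets, 7 were more than 2-fold higher and 4 lower, and of 43 autophagy and lysosome genes 11 were higher and 5 lower. ADM, the vasodilator adrenomedullin, had 12150, 13010, 31260 and 142300, and VEGFA, the vascular growth factor, 748, 1634, 3121 and 3548. CA12, a membrane carbonic anhydrase, was lower, with 4383, 4056, 1840 and 1562. GABARAPL1 and MAP1LC3B, proteins of the autophagosome membrane, had 3959, 10110, 17600 and 33400 and 1693, 2371, 4868 and 6324, and SQSTM1, the cargo receptor p62, was 2.96-fold higher. WIPI1, which binds the phosphoinositide of the forming autophagosome, and the protease ATG4C were 2.39-fold and 3.85-fold lower. Zinc transporters went from 8179 to 22380 for SLC39A14 and from 2315 to 832 for SLC39A8, in a list of 31 metallothionein and zinc transport genes with 4 higher and 2 lower. Of 16 aminoacyl-tRNA synthetases, 2 were higher, GARS1 for glycine (2092 and 5132) and YARS1 for tyrosine (841 and 2041), and 1 was lower, QARS1 for glutamine (22180 and 3903).

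Large housekeeping families varied little. Of 87 cytosolic ribosomal protein genes, 1 was more than 2-fold higher (RPL22L1, 44600 and 111600) and 0 lower, and of 81 oxidative phosphorylation genes 0 were higher and 4 lower, with medians of 0.07 and 0.02. The medians of the cytosolic ribosomal, proteasome and endoplasmic reticulum chaperone lists changed sign when the arrays were scaled to their 75th percentiles, so these lists have no settled direction. Of 43 proteasome genes, 4 were more than 2-fold lower and 0 higher, including the immunoproteasome subunits PSMB8 and PSMB9 at 2.62-fold and 2.03-fold lower. Of 76 mitochondrial ribosomal proteins, 14 (18.4%) were more than 2-fold lower, close to the 16.8% of all genes, and 1 was higher, with a median of -0.24. MRPS34 had 10510, 10530, 5745 and 2232 and MRPS26 13430, 12500, 7656 and 3089. Of 16 reference genes often used for scaling, 15 were within 2-fold.

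Chromatin and transcription genes held some of the largest single differences while their lists stayed near 0. Of 76 histone-modifying enzymes, 19 were more than 2-fold higher and 10 lower. KAT14, an acetyltransferase of the ATAC complex, had 3355, 1296, 408 and 42.6, the lowest log2 ratio of all genes well above background on both arrays at -6.30. KDM6B, the H3K27 demethylase JMJD3, had 35.7, 107, 252 and 721, 20.2-fold higher. EHMT2, the H3K9 methyltransferase G9a, was 9.40-fold and the acetyltransferase KAT2A 4.52-fold lower. Of 123 genes of the transcription machinery, 20 were higher and 15 lower. HEXIM1 and HEXIM2, which keep the elongation factor P-TEFb inactive, were 3.67-fold and 19.1-fold lower, the latter with 18190, 10340, 3258 and 951. ELL, an elongation factor, and CCNT2, a cyclin subunit of P-TEFb, were 8.71-fold and 4.96-fold higher, ELL with a log2 ratio of 1.95 on another probe. The kinases CLK1 and CLK4, which phosphorylate splicing factors, were 4.91-fold and 4.95-fold higher, with 726 and 3561 for CLK1.

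Zinc finger ZNF genes were the largest list, with 388 measured members. Of these, 81 (20.9%) were more than 2-fold higher and 57 (14.7%) lower, beside 15.4% and 16.8% of all genes. Their median of 0.21 became 0.02 with scaling to the 75th percentile. ZNF658 was 14.9-fold lower and ZNF697 8.45-fold higher. Among 326 long noncoding RNAs, 10.7% were more than 2-fold higher and 19.3% lower, beside 15.6% and 16.7% of 13562 protein-coding genes. Of 97 antisense RNAs, 6 were higher and 23 lower, and of 78 LINC transcripts 9 were higher and 16 lower, but the medians of -0.33 and -0.16 became -0.01 and 0.01 when genes near background on both arrays were kept. LINC00473 had 20940, 13720, 5965 and 1781. Of 21 host transcripts of small nucleolar RNAs, many degraded once ribosomes reach them, 5 were more than 2-fold higher and 0 lower. This was 23.8%, beside 15.4% of all genes. The list's median was 0.24, with 8 of the 21 below the vehicle, and it was already 0.18 between the vehicle arrays. SNHG12 had 495, 990.5, 1084 and 3022, SNHG15 1024 and 4357 and SNHG1 1879 and 6860.

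Among the 25 genes with the largest difference in the higher direction that were well above background on both arrays, several lie outside these lists. C3orf52 was 34.2-fold higher, the homeobox factor DLX2 22.9-fold, the small GTPase REM2 20.2-fold, LCAT, which esterifies plasma cholesterol, 18.4-fold, LY6K 18.4-fold and LSMEM1 22.6-fold. DLX2 had 46.8, 56.9, 114 and 1069, with nearly all of the difference above 5 μg/mL, whereas REM2 had 56.7, 342, 557 and 1145.

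The 25 genes with the largest difference in the lower direction came from many lists or from none. SCARA5, a ferritin receptor, had 3492, 2909, 586 and 72.4, 48.2-fold lower. SALL2, a zinc finger factor, had 1386, 316, 107 and 46.6, 29.7-fold lower, VAV3, an exchange factor of small GTPases, 1042, 548, 119.5 and 39.5, and EEF2K, the kinase that inhibits elongation factor 2, 2718, 904, 479 and 120.4. RAB37 was 31.9-fold lower, with another probe at -2.19. Others were TMEM37 (27.5-fold), FOXS1 (22.0-fold), GPRIN2 (22.6-fold), BCAS1 (21.2-fold), B4GALNT1, a ganglioside synthase (19.1-fold), TCEA2 (17.7-fold), VASH1 (17.2-fold), NUDT18 (15.8-fold), C14orf93 (17.6-fold), C5orf58 (20.2-fold) and SNAI3-AS1 (21.2-fold). RIMBP3, 34.0-fold lower, has near-identical copies and its value is uncertain. GPRIN2 and B4GALNT1 were already at 640.0 and 708 at 1.25 μg/mL, from 4123 and 3809 on the vehicle array.

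Genes well above background on 1 array only gave bounds. Of 449 such genes on the 20 μg/mL array, 231 were more than 2-fold and 76 more than 4-fold higher by their bound. Of 747 on the vehicle array, 311 were more than 2-fold and 98 more than 4-fold lower, and 46 of the 747 had no fold because the bound was under 1. C11orf96 read 31.5, 427, 808 and 2105, at least 66.9-fold higher, ETS1, a transcription factor, at least 15.0-fold, NOCT, a rhythmic nucleotide phosphatase, at least 15.4-fold, and ARC, an activity-regulated early gene, at least 15.5-fold. IDI2-AS1 was at least 20.4-fold higher. On the lower side, ST6GAL1, a sialyltransferase, had 1013, 286, 216 and 22.2 and was at least 36.2-fold lower. The bounds were at least 24.2-fold lower for CCR7, a chemokine receptor, 24.2-fold for BAAT, which conjugates bile acids, and 17.8-fold for ST8SIA4, a polysialyltransferase. Those of FAM177B, DIXDC1, LIAT1 and OSGEPL1 were, in the same lower direction, at least 25.1-fold, 18.0-fold, 19.8-fold and 17.9-fold.

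Probes of the same gene could disagree. Among 3083 genes for which at least 2 probes were well above background on both arrays, 1326 were more than 2-fold different on at least 1 probe. Of these, 517 were so on every probe in 1 direction, 206 also had a probe of the other sign and 20 had probes more than 2-fold apart from the vehicle in both directions. The median range between probes of a gene was 0.41 on the log2 scale. TGM2, transglutaminase 2, had 2514 and 1090 (log2 ratio -1.21) on one probe and 665 and 4394 (log2 ratio 2.72) on another. IP6K2, an inositol phosphate kinase, had 2415 and 832 (log2 ratio -1.54) and 198 and 1478 (log2 ratio 2.90).

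Gene span and position showed small differences in these shares. Among protein-coding genes divided into 5 bins by genomic span, 12.8% of the shortest bin and 18.4% of bin 4 were more than 2-fold higher, and 18.0% and 16.4% were lower. The median span was 23100 bases for the 503 protein-coding genes more than 4-fold higher, 27600 for the 611 more than 4-fold lower and 28100 over all, but 33600 for the 2118 more than 2-fold higher, so span showed no single direction. By chromosome, the share of higher genes ran from 10.8% on chromosome 17 to 21.5% on chromosome 13, and the share of lower genes from 13.7% on chromosome 19 to 20.4% on chromosome 18.

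Promoter windows of 250 bases were compared by their motifs, each counted on both strands, against all 16295 windows. The cAMP response element TGACGTCA lay in 4.16% of the 553 windows of genes more than 4-fold higher, in 2.36% of all windows and in 0.674% of the 742 windows of genes more than 4-fold lower. The AP-1 site TGANTCA lay in 7.78%, 4.74% and 3.37%, and the TATA box TATAAA in 10.7%, 6.89% and 7.01%. The ETS site CCGGAAG lay in 11.2%, 13.0% and 9.16%, below the share of all windows at both ends. The heat shock element was rare, with 0.181%, 0.368% and 0.674%, which is 1, 60 and 5 windows. The E-box CACGTG (8.86%, 7.99% and 7.14%) and the box CCAAT (31.8%, 32.8% and 34.4%) differed little. Several windows can belong to 1 gene, and the median GC content was 64.8%, 64.0% and 64.0%.

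**Figure D5:**
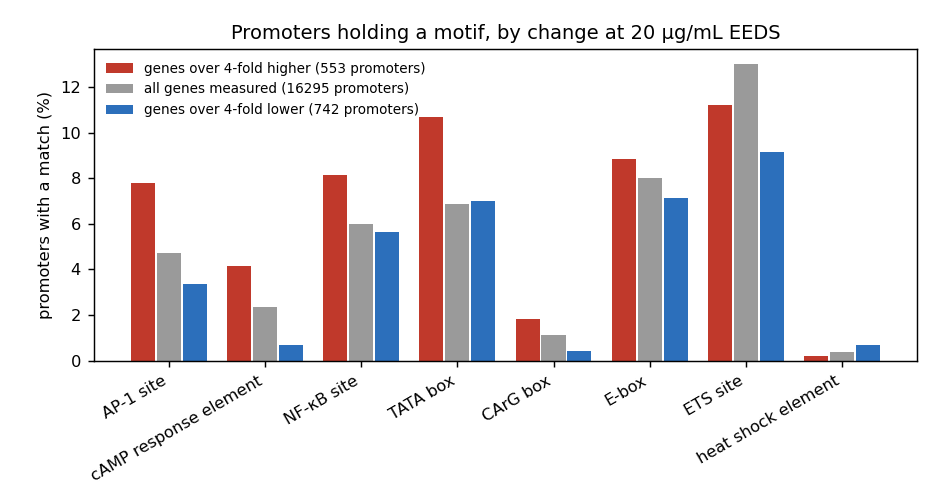
Percentage of 250-base promoter windows that hold a motif, for genes more than 4-fold higher at 20 μg/mL EEDS (red, 553 windows), all genes measured (grey, 16295 windows) and genes more than 4-fold lower (blue, 742 windows). The cAMP response element runs from 4.16% over 2.36% to 0.674% across these groups.

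At the top dose of the helveticoside series, 60 nM against its own vehicle array, the agent and dose differ and the values can only be set side by side. Genes and probes were those chosen on the EEDS arrays. The lowest signal called well above background was 46.9 and 44.5 on the helveticoside vehicle and 60 nM arrays. On the EEDS vehicle and 20 μg/mL arrays it was 23.5 and 28.0. For the same signals, the bound of a dim gene is therefore a smaller minimum fold for helveticoside. The median log2 ratio was 1.71 at 60 nM and 2.46 at 20 μg/mL EEDS for immediate early factors, 1.51 and 1.34 for p53 targets, 0.72 and 1.58 for NF-κB genes, 1.20 and 0.56 for ATF4 genes (1.09 for EEDS against the helveticoside vehicle), -0.43 and -0.35 for heat shock genes, and -1.11 and -1.02 for aldehyde dehydrogenases and aldo-keto reductases. EGR1 had 7.68 and 9.94, KAT14 -5.17 and -6.30, HSPA8 -4.16 and -4.32, and CLDN2 -5.14 and -4.33.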

How the data were processed

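RNA from 8 treatments of A549 cells was hybridised to 1 one-colour Agilent array each, after RNA from triplicate cultures had been pooled. The deposited scanner files hold the background-subtracted intensity of each spot from Agilent Feature Extraction, the scanned median intensity and local background, and calls of 0 or 1 for spots well above background. The software version is not given in the sources used here, and the labels name a red dye while the columns are those of the green channel. The authors also deposited a table of normalised intensity values on a linear scale, which was used only as an alternative.

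Control and outlier spots were left out, spots of a probe were averaged, and the 8 arrays were quantile-normalised on processed intensities. Of 34105 probes, 24812 were matched by RefSeq accession to 19056 genes (GRCh38.p14), and 9293 could not be named. The probe well above background on most of the 2 arrays, then the brightest, stood for a gene. Python 3.11.15, numpy 2.4.6, pandas 2.3.3, R 4.3.3 and limma 3.58.1 (normexp, offset 50) were used. No test was made, since each side is 1 array, which also limits the precision. Counting of folds was tested on simulated data in which few probes differed and none of these was dim. That setting does not cover dim genes or differences as many as those found here. Signals compress near background and near the brightest values, so folds of dim and very bright genes are less certain.

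The genes and gene lists were chosen with earlier results of these data known. Named genes were the 25 largest differences each way among genes that both arrays measured well above background, the 10 largest bounds each way, within each list the 6 largest absolute log2 ratios with members of related role, genes with probes in opposite directions, and cell markers. Some list members of well-known role outside this rule were chosen after their values were seen. Alternatives covered normalization, background, filter, probe choice and control array. Some genes that the rule would name are not reported here.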

Additional observations from a re-analysis of the deposited data

How the results depend on the processing

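No paired analysis was possible because each treatment is 1 array. The counts of genes past 2-fold stayed within 1.5 times of those reported, from 1543 to 2452 higher and from 1716 to 2919 lower over 11 alternatives. Past 4-fold, the count of higher genes was 284 on scanned median signals without background subtraction and 292 after normexp with an offset of 50, against 515, and that of lower genes 320 and 327, against 643. Both settings leave a background in the signal, which compresses folds of dim genes. Scaling to the 75th percentile moved the share of higher genes among those past 2-fold from 47.8% to 41.8%. Of 59 list medians, none of at least 0.5 in size changed sign, but several came near 0. When genes near background on both arrays were kept, cytokines went from 1.70 to 0.23, ABC transporters from -0.60 to -0.04, Wnt genes from -0.57 to -0.11, liver-type proteins from -0.62 to -0.12 and plasminogen genes from 0.62 to 0.08. With the helveticoside vehicle as the control, 1707 of the 2183 higher and 1753 of the 2381 lower genes remained past 2-fold, the sign turned for HOXB8 (log2 ratio 2.53), the HOX median was -0.06 and the cholesterol median -0.09, against -0.52. As a mean over probes, ABCC3 was 0.30, IP6K2 0.68 and TGM2 0.76, on the other side of the vehicle from their brightest probe. No other named gene past 2-fold changed sign. Dim genes have only bounds, and 1 array a side gives no error of a fold.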
